A study of Mus musculus with 141 samples.

Results

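The 6 libraries described here are the mouse helper T cell cultures given IL6 and TGFb and collected at 12 h and at 24 h of stimulation, 3 libraries at each time. They were chosen by their column names and are 6 of the 141 libraries of the series. The cells came from C57BL/6 mice, a common inbred strain, and were naive CD4 T cells (CD4+CD25-CD44lo) purified by sorting from lymph nodes and spleen. Every stimulated culture sat on plate-bound antibodies to CD3, a part of the T cell receptor, and to CD28, a costimulatory receptor. The groups used were IL6 and TGFb at 12 and 24 h, no cytokines (the label's Th0) at 12 and 24 h, and 3 cocktails at the same times, in which IL6 and TGFb were joined by IL1b, by IL21 or by both. Each group had 3 libraries, which the labels call biological replicates and number by course. The cultures without cytokines and with IL6 and TGFb came from courses 1 to 3, and the cocktails came from courses 4 to 6. The age and sex of the mice, and which mice or cultures the libraries of a course share, are not stated in the labels. The cultures are an in vitro model, with no antigen-presenting cells named.

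IL6 and TGFb together turn a naive CD4 T cell towards the Th17 fate. IL6 acts through the transcription factor STAT3 and TGFb through SMAD proteins, and the fate is known for making interleukin 17. At the same time receptor and CD28 signals push the resting cell to grow and then to copy its DNA and divide. In bulk RNA, fewer cells of a type and less RNA per cell cannot be told apart.

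Between 12 and 24 h the cultures with IL6 and TGFb did 3 visible things at once. Genes for copying DNA and dividing rose together, up to 6.44 ± 0.40 on the log2 scale for Mki67, the standard marker of proliferating cells. Effector genes of the Th17 fate rose, led by Il17f, while most of the transcription factors listed with them were not called. Of 15 NF-kB genes 8 fell, as did 5 of 12 ligands of the TNF family, against 21.4% of all genes. Of 20 immediate early genes 6 fell (30%), nearer to that share. Single genes fell further, among them Tnfsf8 (-3.35 ± 0.22) and Cd69 (-2.63 ± 0.26). Without cytokines the replication and division genes rose in nearly the same numbers, and 1 of 16 Th17 core genes rose in place of 9. There 4 of the NF-kB genes, 2 of the TNF family ligands and 4 of the immediate early genes fell, against 22.4% of all genes. A test of the difference between the 2 steps called 1 NF-kB gene and 3 TNF family ligands more negative with the cytokines. It called 0 immediate early genes, and 2.23% of all genes were called more negative. Changes here are log2 fold changes ± SE from limma on log2 of TMM-scaled CPM (reads of a gene scaled to a common library total) plus 0.5, positive when the level was higher at 24 h, and levels are TMM-scaled CPM. Adjusted p values are Benjamini-Hochberg values from limma over all genes tested, and a gene was called when its value was under 0.05. The added 0.5 understates the change of genes near or below 1 CPM.

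Of 14695 genes tested, 6201 (42.2%) were called, 3060 higher (20.8%) and 3141 lower (21.4%) at 24 h. Higher calls made up 49.3% of these, or 59.6% without TMM scaling, and the median over all genes was -0.03, or 0.03 without it. The rises were larger than the falls. Among called genes, 1113 rose and 255 fell by at least 2-fold, 318 rose and 28 fell by at least 4-fold, and 69 rose and 0 fell by at least 16-fold. The 6 libraries held 23.8 to 27.7 M counted reads, so that 1 read was worth 0.0361 to 0.042 CPM. Each SE rests on the spread in all 19 groups of courses 1 to 3, so a gene that varied at other times has a large SE here.

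The cells looked like helper T cells at both times. The summed level of the 10 helper T cell genes was 3248 to 3402 CPM at 12 h and 2553 to 2866 CPM at 24 h. Cd4, the coreceptor that names the lineage and named here outside the rule, had a mean of 258 CPM at 12 h and 331 CPM at 24 h (0.36 ± 0.12, adjusted p = 0.013, and 0.0678 without the 12 h library of course 2), and Zap70, the kinase of the T cell receptor, fell (-1.0 ± 0.14, adjusted p = 2.8e-07). Of these 10 genes 1 rose and 5 fell, against 20.8% and 21.4% of all genes. The count of 5 was 3 when either the 24 h library of course 1 or the 12 h library of course 2 was left out. Markers of other cells were low. The 13 myeloid markers summed to 4.74 to 6.55 CPM at 12 h and 4.62 to 7.14 CPM at 24 h, with 0 of 10 tested called. The 10 B cell markers summed to 24.6 to 33.9 and 21.6 to 27.6 CPM, nearly all of it Ighm, with 0 of 9 tested called. The 2 CD8 T cell markers summed to 3.92 to 4.26 CPM at 12 h and 1.98 to 2.64 CPM at 24 h. Among 8 NK and gamma-delta T cell markers, Ncr1 and Klra8 were at 0 in all 6 libraries, and the sum was 4.07 to 5.00 CPM at 12 h and 4.18 to 5.08 CPM at 24 h. The 11 erythroid and platelet markers summed to 8.13 to 11.1 CPM at 12 h and 2.75 to 5.16 CPM at 24 h, with 6 of 8 tested lower and Pf4 and Ppbp at 0. That count was 2 with a pseudocount of 2 and 1 when only the libraries compared entered the fit.

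DNA replication was switched up almost as a whole. The list holds 40 genes for opening origins, unwinding and copying DNA, and 39 rose and 0 fell, with a median change of 1.59 against -0.03 for all genes. The shares of all genes were 20.8% higher and 21.4% lower. The one that was not called was Pold2, a subunit of a DNA polymerase, chosen here after its value was seen. Cdc6, which loads the replicative helicase on origins, stood at 2.64, 3.25 and 2.57 CPM in the 12 h libraries and at 141, 137 and 134 CPM in the 24 h libraries. The 24 h libraries were all far above the 12 h libraries, and the change was 5.38 ± 0.20 (adjusted p = 7.5e-25). Mcm10, which helps start the helicase, rose by 4.91 ± 0.32, Cdc45, a part of the running helicase, by 3.64 ± 0.14, and Uhrf1, which carries DNA methylation through replication, by 3.52 ± 0.28.

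The supply of DNA building blocks was more selective. Rrm2, the limiting subunit of the enzyme that makes deoxynucleotides, stood at 9.08, 9.30 and 9.60 CPM at 12 h and at 496, 480.0 and 426 CPM at 24 h, with no overlap and a change of 5.57 ± 0.29. Of 22 nucleotide supply genes 8 rose and 2 fell, and the other 12 were not called; most of the latter belong to the steps that build purines and pyrimidines from small molecules, such as Gart at a change of -0.19 and Cad at -0.01. The count of 8 was 36.4% of the list, against 20.8% of all genes, and became 13 with the replicate block and only the libraries compared. Histone genes of the replication-dependent clusters, taken by their symbol prefix after the data were seen, also went up: 17 of 23 tested rose and 0 fell. The same number rose without cytokines, and the test of the difference between the 2 steps called 5 of the 23, against 4.46% of all genes. Their messages mostly lack a poly(A) tail, and the labels do not state how RNA was selected for the libraries, so their level depends on that selection. Dnmt1, the maintenance DNA methyltransferase, rose from 224, 230.0 and 196 to 846, 768 and 787 CPM (1.88 ± 0.12).

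Mitosis genes showed the largest list median, 4.11, with 43 of 45 higher and 0 lower, against 20.8% and 21.4% of all genes. Mki67 stood at 3.28, 6.00 and 5.84 CPM at 12 h and at 565, 494 and 364 CPM at 24 h (adjusted p = 1.07e-17). The lowest 24 h library was still far above the highest 12 h library. Kif18b, a microtubule motor of the spindle, rose by 5.74 ± 0.32, Aurkb, the kinase that corrects chromosome attachment, by 5.33 ± 0.32, and Birc5, its partner survivin, by 5.30 ± 0.32. Kntc1, a kinetochore checkpoint protein, rose by 5.51 ± 0.32, and Esco2, which sets sister chromatid cohesion, by 5.34 ± 0.27.

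Of 24 cyclins, cyclin-dependent kinases and E2F factors 17 rose and 1 fell. The counts in this paragraph stand beside 20.8% of all genes higher and 21.4% lower. Ccna2, the cyclin of S phase and G2, stood at 1.81, 1.96 and 2.12 CPM at 12 h and at 151, 132 and 120.2 CPM at 24 h (5.77 ± 0.38). E2f8 and E2f7, repressors that act late in the cycle, rose by 6.38 ± 0.40 and 5.17 ± 0.25, and Cdk1, the mitotic kinase, by 4.94 ± 0.30. Among the members that were not called were the G1 cyclins Ccnd1 and Ccnd2 and their kinases Cdk4 and Cdk6, with values of -0.24, -0.28, 0.20 and -0.40. Of 20 DNA repair and checkpoint genes 18 rose, among them Clspn, the checkpoint adaptor claspin, at 6.25 ± 0.28, Rad54l, a recombination motor, at 4.66 ± 0.19, and Fancd2, of the crosslink repair pathway, at 4.52 ± 0.14. The kinases Atm and Atr were not called, with values of 0.19 and -0.06. CDK inhibitors did not fall: 4 of 6 tested rose, among them Cdkn2d, an inhibitor of G1 kinases, by 1.55 ± 0.20, and that count was 2 without the 12 h library of course 2.

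The same lists were set beside the step without cytokines. There, DNA replication had 39 higher and 0 lower, mitosis 43 higher and 1 lower, and DNA repair 20 higher and 0 lower, and the test of the difference between the 2 steps called 0 members of the 3 lists, against 4.46% of all genes. For Mki67 the difference was -0.47 ± 0.57 (adjusted p = 0.803).

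Promoter sequences are shown for the replication and mitosis genes because they moved together. E2F factors, which time S phase genes, bind an element that was searched here as TTTCCCGC, TTTCGCGC, TTTGCCGC or TTTGGCGC on both strands, in the 250 bases before and 50 after the gene start as RefSeq places it in build GRCm38.p6. Of the 32 replication genes with a promoter in that table, 14 (43.8%) held it, against 3.10% of all 18458 genes. Of the replication genes that held it before the start, 4 with a high change are shown, the element in capitals, each read 5′ to 3′ on the strand of its gene.
Cdc6, chr11:98907987-98908046, plus strand: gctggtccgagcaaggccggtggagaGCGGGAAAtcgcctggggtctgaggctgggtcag
Uhrf1, chr17:56304102-56304161, plus strand: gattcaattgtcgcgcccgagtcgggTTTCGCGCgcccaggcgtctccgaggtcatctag
Pola1, chrX:93632260-93632319, minus strand: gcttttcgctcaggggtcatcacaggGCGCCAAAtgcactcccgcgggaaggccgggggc
Gins3, chr8:95633492-95633551, plus strand: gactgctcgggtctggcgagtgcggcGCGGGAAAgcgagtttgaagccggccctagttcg

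Mitosis genes are known for another element, TTTGAA, named the cell cycle homology region, often with CCAAT boxes nearby. TTTGAA on either strand was in the promoters of 30 of 39 mitosis genes (76.9%) against 18.5% of all genes, and CCAAT in 29 of 39 (74.4%) against 41.5%. Of the mitosis genes with TTTGAA before the start, 3 with a high change are shown in the same way.
Mki67, chr7:135716445-135716504, minus strand: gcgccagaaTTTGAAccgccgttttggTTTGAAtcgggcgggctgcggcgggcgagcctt
Ncapg, chr5:45669865-45669924, plus strand: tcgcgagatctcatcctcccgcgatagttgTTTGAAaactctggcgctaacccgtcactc
Espl1, chr15:102296233-102296292, plus strand: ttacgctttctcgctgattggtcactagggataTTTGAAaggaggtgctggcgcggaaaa
These matches describe letters in a window and are not sites at which binding was measured. Ncapg encodes a condensin subunit and Espl1 the protease that releases sister chromatids.

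The Th17 core list, of 16 genes, divided into effector genes, which rose except for Il21, and regulators that were not called higher. In all 9 rose and 1 fell, with a median change of 1.73 (1.97 with Il24, which had no read at 12 h, at its lower bound), while 1 rose and 0 fell without cytokines. The shares of all genes were 20.8% and 21.4% with the cytokines, and 20.8% and 22.4% without them. The list was written with earlier results of these data known. The count of higher members was 14 with the replicate block and only the libraries compared. Il21, Maf, Ahr and Batf were then among them, so the division depends on the fit.

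Il17f, which encodes one of the 2 interleukin 17 cytokines, stood at 37.7, 40.5 and 31.9 CPM at 12 h and at 1205, 1410.2 and 1112 CPM at 24 h. The groups were wide apart, and the change was 5.06 ± 0.72 (adjusted p = 1.6e-07). The cultures without cytokines stayed between 0.861 and 9.02 CPM at both times. Il17a, the other interleukin 17 gene, stood at 0.603, 0.584 and 0.856 CPM at 12 h, against a 0 h mean of 0.438 ± 0.362 CPM (SD, n = 3), and at 17.2, 20.0 and 12.0 CPM at 24 h (3.82 ± 0.39, adjusted p = 6.68e-11). Its later means were 232 ± 93 CPM (SD, n = 3) at 48 h and 177 ± 104 CPM at 72 h, so that 24 h was early in its course. Il17f had a mean of 2375 ± 538 CPM at 48 h and 913 ± 360 CPM at 72 h.

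Other cytokine genes also appeared. Il10, which encodes an anti-inflammatory cytokine, stood at 1.13, 0.751 and 1.60 CPM at 12 h and at 14.2, 8.04 and 15.4 CPM at 24 h, without overlap (2.96 ± 0.27). Il22, which acts on epithelium, rose from 0.113, 0.292 and 0.260 to 3.21, 3.28 and 3.09 CPM (2.36 ± 0.24). Il24, of the interleukin 10 family, had 0 reads in the 3 libraries at 12 h and 1.53, 1.08 and 1.41 CPM at 24 h, at least 11.2-fold higher when 3 reads per library are taken as the floor. Ccl20, the ligand of CCR6, rose to 1.72, 2.20 and 1.27 CPM (1.58 ± 0.30). Il21, an early STAT3 target, was at 296, 204 and 200.3 CPM at 12 h and at 262, 258 and 278 CPM at 24 h, and the groups overlapped (0.21 ± 0.41, adjusted p = 0.73).

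Receptor genes of the fate rose with the cytokines. Il23r, the receptor for the cytokine that maintains Th17 cells, stood at 0.490, 0.250 and 0.893 CPM at 12 h and at 11.6, 10.9 and 10.9 CPM at 24 h (3.52 ± 0.19, adjusted p = 2.58e-19). Il1r1, the interleukin 1 receptor, rose from 14.1, 15.2 and 10.5 to 112, 100.4 and 98.4 CPM (2.93 ± 0.30). Ccr6, the chemokine receptor that marks Th17 cells, rose from 0.941, 1.88 and 1.38 to 18.7, 32.3 and 22.4 CPM (3.71 ± 0.54). In each of the 3 the 12 and 24 h libraries were apart. Over all 24 cytokine receptor genes 7 rose (29.2%) and 3 fell (12.5%), against 20.8% and 21.4% of all genes. The count of 7 was 14 when only the libraries compared entered the fit.

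Most of the transcription factors on the list were not called. Maf, Ahr and Batf, which bind Th17 genes, had differences of 0.16 ± 0.31, 0.15 ± 0.29 and 0.49 ± 0.23, with adjusted p of 0.731, 0.729 and 0.0749. Maf and Ahr were each called higher in 1 alternative, the replicate block with only the libraries compared. Batf was called higher in 4 alternatives: its adjusted p was 0.0301 without TMM scaling, 0.0414 with the replicate block, 1.22e-05 with only the libraries compared and 2e-06 with both of the last 2. Rora, which encodes a nuclear receptor, fell from 499.8, 476 and 396 to 227, 244 and 236 CPM (-0.95 ± 0.25, adjusted p = 0.00215). Irf4, a factor induced by receptor signals, stood at 3079, 2998 and 3016 CPM at 12 h and at 1683, 1471 and 1789 CPM at 24 h without overlap, but its change of -0.88 ± 0.43 was not called (adjusted p = 0.0924); it was with only the libraries compared (adjusted p = 2.9e-06).

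A search of the core list's promoters for the STAT element TTCNNNGAA found it in 1 of the 11 genes with a promoter in the table (9.09%) against 9.2% of all genes. The single match was in Ccr6 and is shown because its gene rose.
Ccr6, chr17:8235898-8235957, plus strand: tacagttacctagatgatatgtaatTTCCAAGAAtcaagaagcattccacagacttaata

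**Figure D1:**
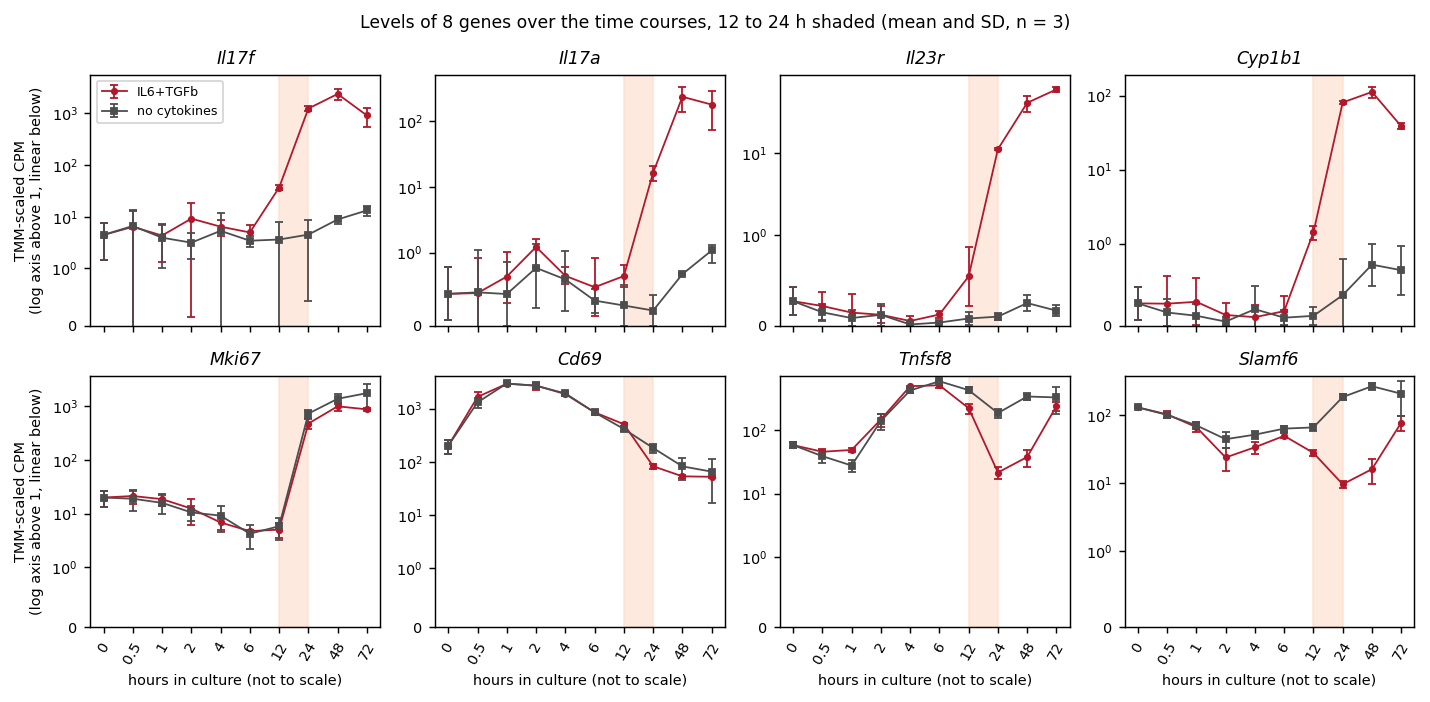
Mean TMM-scaled CPM ± SD (n = 3 libraries) of 8 genes at 0 h and at 9 times to 72 h, circles for IL6 and TGFb and squares for no cytokines, with the 12 to 24 h step shaded, a log axis above 1 and a linear one below; times are evenly spaced, not to scale. Il17f, Il17a, Il23r and Cyp1b1 rise in the step with the cytokines alone, Mki67 rises in both, Cd69 falls in both, and Slamf6 goes opposite ways.

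Targets of the aryl hydrocarbon receptor, a sensor of small aromatic molecules encoded by Ahr, were a further list with more members higher than lower. Of 6 listed genes 4 rose and 0 fell with the cytokines, Ahr itself not being called, and 2 rose and 0 fell without them. The shares of all genes were 20.8% and 21.4% with the cytokines, and 20.8% and 22.4% without them. Cyp1b1, a cytochrome P450 that breaks down such molecules, stood at 1.47, 1.08 and 1.71 CPM at 12 h and at 77.9, 81.0 and 83.1 CPM at 24 h. No library of one time came near the other, and the change was 5.41 ± 0.30 (adjusted p = 1.73e-19). Cyp1a1, its relative, rose from 5.08, 2.46 and 3.68 to 50, 36.7 and 55 CPM (3.52 ± 0.42). Tiparp, which restrains the receptor, rose by 1.18 ± 0.14, and Ahrr, its repressor, named although its mean is under the 5 CPM minimum, by 2.70 ± 0.31.

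Among neighbouring fates, regulatory T cell, Th1 and Th2 genes did not move as blocks. Of all genes tested, 20.8% rose and 21.4% fell. Of 14 regulatory T cell genes 3 rose and 5 fell. Entpd1, which encodes the ectoenzyme CD39, rose from 0.490, 0.375 and 0.744 to 15.5, 7.83 and 10.3 CPM (3.46 ± 0.37), Ctla4, an inhibitory receptor, by 1.89 ± 0.20, and Ikzf2, the factor Helios, by 1.69 ± 0.32. Among the 5 that fell was Tnfrsf9 (-1.22, limma adjusted p = 0.038), which was not called in 6 of 15 alternatives. Foxp3, the lineage factor, changed by 0.38 ± 0.58 (adjusted p = 0.644). The 5 lower members became 3 without TMM scaling, without the filter on low values, and without the 24 h library of course 1 or of course 3 or the 12 h library of course 2.

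Among 14 Th1 genes 3 rose (21.4%) and 1 fell (7.1%), against 20.8% and 21.4% of all genes. Il12rb2, an interleukin 12 receptor chain, rose by 3.22 ± 0.29, Cxcr3, a chemokine receptor, fell by 2.07 ± 0.46 on the log2 scale, and Tbx21, the lineage factor T-bet, was at -0.06 ± 0.61 (adjusted p = 0.956). Of 8 tested Th2 genes 1 rose and 3 fell. The riser was Nfil3, a circadian transcription factor, at 1.73 ± 0.16, and Gata3, the lineage factor, named outside the rule, was at -1.09 ± 0.16 (adjusted p = 2.45e-07).

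Follicular helper genes went down: 0 of 11 rose and 6 fell, against 20.8% and 21.4% of all genes. Bcl6, the lineage repressor, fell by 1.79 ± 0.33 on the log2 scale. Slamf6, an adhesion receptor, stood at 27.4, 31.5 and 25.3 CPM at 12 h and at 10.9, 8.37 and 9.82 CPM at 24 h (-1.49 ± 0.24). Btla, an inhibitory receptor, and Tox, a nuclear factor, each changed by -1.09, with SE of 0.29 and 0.14. Lists for the pathogenic and the non-pathogenic Th17 type, taken from common usage, had 3 higher and 2 lower of 14 (0 to 4 lower over the alternatives, 0 without the 24 h library of course 2 and 1 without any other single library), and 3 higher and 0 lower of 7. The latter were Cd5l, a regulator of lipid metabolism (3.44 ± 0.28), Il9, a growth factor gene of mast cells and T cells (3.31 ± 0.34), and Il10.

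Of the 12 lowest genes, 3 that encode surface proteins are given first. Tnfsf8, the ligand of CD30, stood at 179, 240.2 and 254 CPM at 12 h and at 16.8, 22.5 and 25.3 CPM at 24 h (adjusted p = 5.58e-17). The highest 24 h library was far below the lowest 12 h library. Cd69, the early activation antigen, fell from 501, 547 and 484 to 73.6, 84.2 and 89.4 CPM (adjusted p = 1.92e-11). Cd274, which encodes the inhibitory ligand PD-L1, fell from 106 to 138 CPM in the 12 h libraries to 12.9 to 17.4 CPM in the 24 h libraries (-2.96 ± 0.48, adjusted p = 2.15e-06).

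The lowest group also held several brakes and regulators of signalling. They were Spry1, an inhibitor of receptor tyrosine kinase signalling (-3.04 ± 0.49), Rgs16, which shortens chemokine receptor signals (-2.45 ± 0.61), and Gfi1, a transcriptional repressor (-2.32 ± 0.31). Serpinb9, an inhibitor of granzyme B, stood at 10.7, 14.3 and 9.08 CPM at 12 h and at 0.611, 0.866 and 0.618 CPM at 24 h (-3.29 ± 0.25). The remaining members of the lowest 12 were Akr1c18, a steroid-metabolizing reductase (-2.92 ± 0.51), Utf1, a chromatin factor of undifferentiated cells (-2.65 ± 0.29), Adamts6, a secreted protease (-2.57 ± 0.21), Lad1, an anchoring filament protein (-2.54 ± 0.53), and Srgap3, a GTPase regulator of the cytoskeleton (-2.51 ± 0.29).

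Of 12 TNF family ligands 0 rose and 5 fell, with a median of -0.89. The counts in this paragraph stand beside 20.8% of all genes higher and 21.4% lower. Tnfsf11, which encodes RANKL, changed by -2.14 ± 0.51 and Ltb, a lymphotoxin subunit, by -2.07 ± 0.42; 8 fell with the replicate block and only the libraries compared. Of 15 NF-kB genes 0 rose and 8 fell, or 6 without TMM scaling. Nfkb1, a subunit of the factor, stood at 1209, 1482 and 1269.7 CPM at 12 h and at 509, 536 and 558 CPM at 24 h (-1.30 ± 0.17), and Traf1, an adaptor of TNF receptors, fell by 1.23 ± 0.15. Of 20 immediate early genes 1 rose and 6 fell, among them the phosphatase genes Dusp2 (-1.75 ± 0.29) and Dusp5 (-1.66 ± 0.21), and 12 fell when only the libraries compared entered the fit. Il2, the T cell growth factor gene, was at 352, 456 and 257 CPM at 12 h and at 73.4, 142 and 89.4 CPM at 24 h, apart but not called (-1.82 ± 1.05, adjusted p = 0.169).

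Inhibitory and costimulatory receptors fell more often than they rose, 8 against 2 of 16, beside 21.4% and 20.8% of all genes. Cd200, an inhibitory ligand, changed by -2.12 ± 0.51 and Tigit, an inhibitory receptor, by -1.73 ± 0.53, while Ctla4 rose. The 8 became 5 without TMM scaling and 4 without the filter on low values, without the 24 h library of course 1 or without the 12 h library of course 2.

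**Figure D2:**
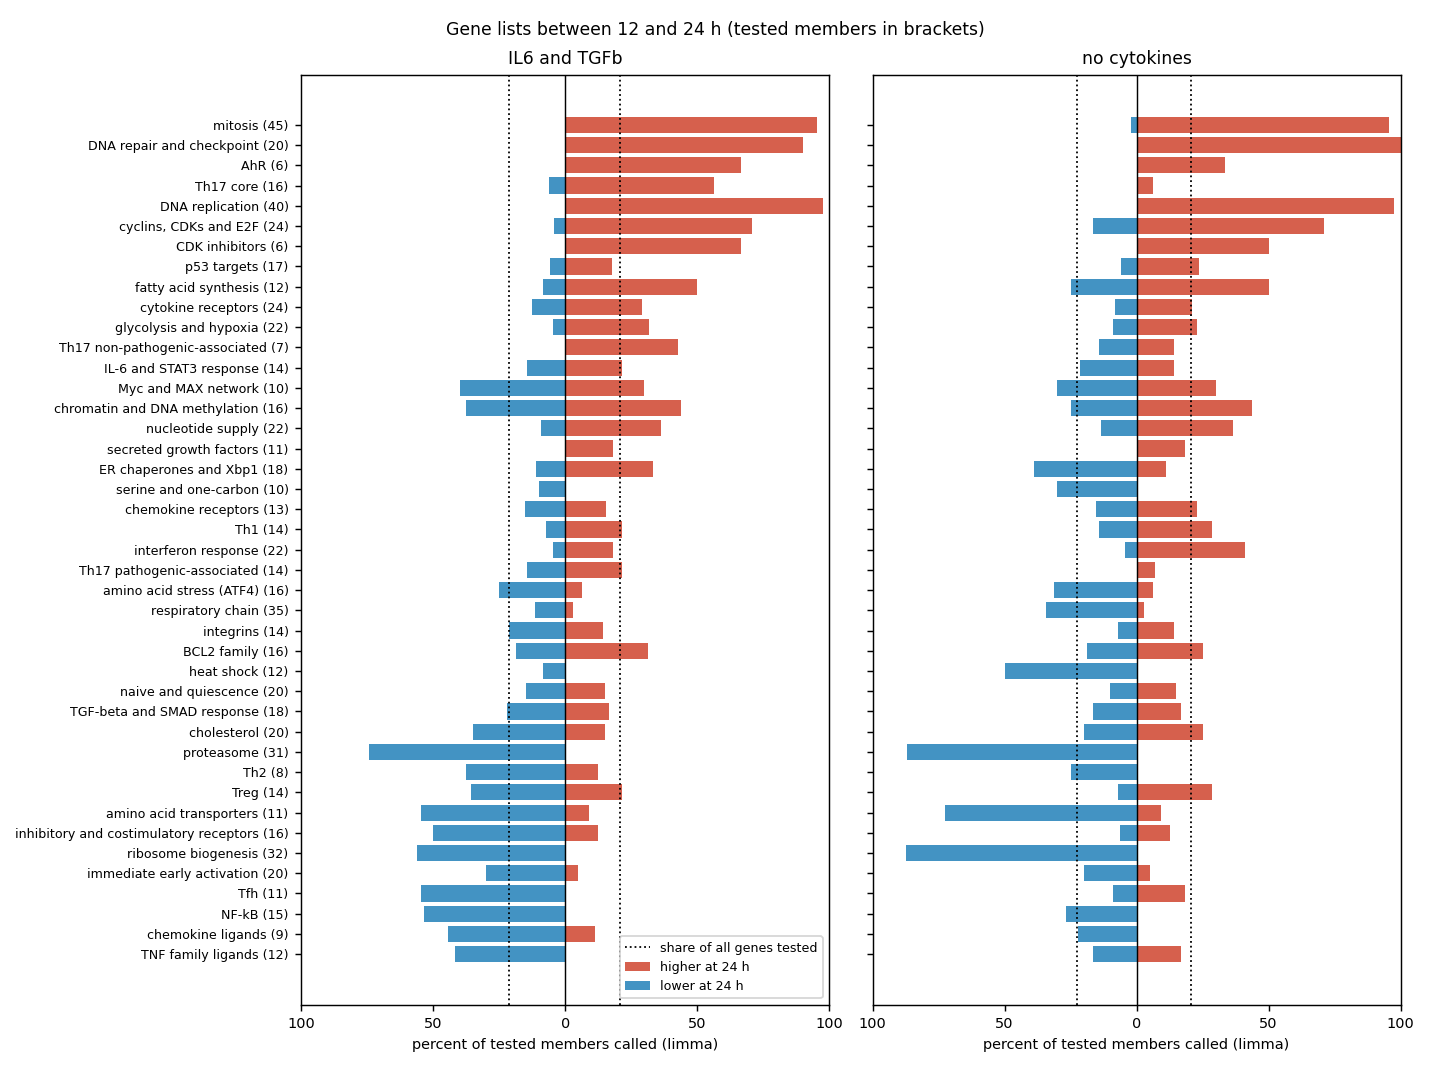
Percent of the tested members of each gene list called higher (right, red) or lower (left, blue) at 24 h than at 12 h, with IL6 and TGFb on the left and without cytokines on the right; the brackets give the tested members and the dotted lines the share of all genes tested. The lists of replication, mitosis and repair have at least 90% of members higher in both cultures, while Th17 core has 9 of 16 higher on the left and 1 of 16 on the right.

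Growth and metabolism lists moved less. Their counts stand beside 20.8% of all genes higher and 21.4% lower. Ribosome biogenesis fell, 0 higher and 18 lower of 32, with a median of -0.46; Wdr43 and Nop58, assembly factors of the small subunit and of small nucleolar particles, changed by -0.73 ± 0.16 and -0.72 ± 0.16. Myc, a transcription factor that drives such genes, stood at 917, 1112 and 894 CPM at 12 h and at 431, 411 and 488 CPM at 24 h (-1.13 ± 0.19). Of 31 proteasome genes 23 fell and 0 rose, by small amounts (median -0.24), such as Psmb3, a core subunit, at -0.54 ± 0.08. These counts depend on the scaling and on single libraries: ribosome biogenesis had 12 lower without TMM scaling and 11 without the filter or without the 12 h library of course 2, and proteasome had 13 lower without TMM scaling or without the filter, and 15 without the 24 h library of course 1 or without the 12 h library of course 2. The E-box CACGTG, which Myc binds, was in the promoters of 7 of 27 ribosome biogenesis genes (25.9%) against 8.84% of all genes.

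In fatty acid synthesis the desaturase genes named here rose, and the other named members were mixed. Scd2, a desaturase that puts a double bond into fatty acids, stood at 24.4, 27.8 and 28.5 CPM at 12 h and at 351, 396 and 329 CPM at 24 h (3.71 ± 0.26, adjusted p = 3.54e-16). Its relative Scd1 and the desaturase Fads2, both named outside the rule, rose by 2.18 ± 0.34 and 3.50 ± 0.29, and Fads1 rose by 1.81 ± 0.15. Elovl5, which lengthens the chain, rose by 0.52 (limma adjusted p = 0.0319) and was not called in 7 of 15 alternatives. Fasn, which builds the chain, fell by 0.40 ± 0.11 on the log2 scale (adjusted p = 0.00314, and 0.0647 without the 12 h library of course 2), and Acly and Acaca, which feed it, were not called (0.07 and -0.13). In all 6 of 12 rose and 1 fell, against 20.8% and 21.4% of all genes. Without cytokines 6 rose and 3 fell, and the difference between the steps was called for 0 members. Fads2 had means there of 0.371 CPM at 12 h and 8.75 CPM at 24 h (difference 0.08, limma adjusted p = 0.969). Of 20 cholesterol genes 3 rose (15%) and 7 fell (35%), with Hmgcs1, an early enzyme, at -0.82 ± 0.13. The count of 7 was 11 with the replicate block and only the libraries compared. The sterol element TCACNCCAC was in 1 of 13 promoters of cholesterol genes (7.69%) against 1.47% of all genes.

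Of 22 glycolysis and hypoxia genes 7 rose (31.8%) and 1 fell (4.5%), against 20.8% and 21.4% of all genes. Slc16a3, the lactate exporter, was at 1.61 ± 0.42 and Pfkp, a phosphofructokinase, at -0.72 ± 0.15. The count of 7 was 15 when only the libraries compared entered the fit. The glycolysis genes Hk2, Pkm and Ldha were not called, at 0.11, 0.14 and 0.34. Respiratory chain genes had 1 higher and 4 lower of 35, serine and one-carbon genes 0 higher and 1 lower of 10, and heat shock genes 0 higher and 1 lower of 12 (5 lower with only the libraries compared), all under the shares of all genes; without TMM scaling the respiratory chain had 7 higher and 3 lower. Amino acid transporters had 1 higher and 6 lower of 11, with Slc3a2, the shared heavy chain of several carriers, at -0.51 ± 0.14, and 2 to 3 lower without TMM scaling, without the filter, without the 24 h library of course 1 or without the 12 h library of course 2.

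The step without cytokines was set beside the step with IL6 and TGFb to ask what the cytokines added to stimulation. It called 6342 of 14695 genes (43.2%), 3051 higher (20.8%) and 3291 lower (22.4%); 48.1% of its calls were higher, or 61.4% without TMM scaling. The 2 steps share no library. They had 4367 genes called in the same direction, 70.4% of the calls with cytokines and 68.9% of those without, and 65 genes called in opposite directions.

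The difference between the steps was called for 656 genes (4.46%), 329 more positive (2.24%) and 327 more negative (2.23%) with IL6 and TGFb. Of these, 268 were called with the cytokines and not without, 169 higher and 99 lower at 24 h, and 189 were called without cytokines and not with them, 114 higher and 75 lower. A further 130 were called in the same direction in both steps, 65 in opposite directions and 4 in neither. The count depends on the fit: it was 731 with the replicate block over all groups, 1938 with only the libraries compared and 3019 when the replicate block was added to that fit.

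The 6 most positive differences were in genes that rose with the cytokines and stayed low without them. They were Cyp1b1 (5.02 ± 0.42), Il17f (4.65 ± 1.01), Pdpn (4.46 ± 0.34), Dnajc6 (3.92 ± 0.33), Lgr4 (3.91 ± 0.39) and Tgm2 (3.21 ± 0.76). Pdpn, which encodes the membrane glycoprotein podoplanin, stood at 0.377, 0.208 and 0.335 CPM at 12 h and at 23.1, 21.5 and 18.6 CPM at 24 h with the cytokines, and at no more than 0.332 CPM in any library without them. Dnajc6 encodes auxilin, which uncoats clathrin vesicles, Lgr4 a receptor for R-spondins, and Tgm2 a transglutaminase. For Cyp1b1 and Pdpn edgeR on the recovered reads gave an adjusted p of 0.12 and 0.145, and DESeq2 gave 0.0935 for Cyp1b1; both genes have 0 reads in at least 1 library without cytokines.

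The 6 most negative differences were of 2 kinds, by the step with the cytokines. Serpinb9 (-3.28 ± 0.35), Serpinb6b, another serpin gene (-2.86 ± 0.38), and Slamf6 (-2.96 ± 0.34) fell with the cytokines. Serpinb6b and Slamf6 also rose without them. Dapl1 (-3.23 ± 0.32), Plxnc1 (-3.10 ± 0.33) and Nrn1 (-2.83 ± 0.56) rose without cytokines and were not called with them. Plxnc1, a semaphorin receptor, stood at 7.71, 7.10 and 7.43 CPM at 12 h and at 65.1, 65.7 and 68.1 CPM at 24 h without cytokines, and between 2.71 and 4.13 CPM in the 6 libraries with them. Slamf6 went from 71.3, 57.3 and 70.8 to 197, 165 and 194 CPM without cytokines. Dapl1 is a gene of naive T cells, and Nrn1 encodes neuritin. The CD8 T cell markers moved with this group without cytokines, from a sum of 13.8 to 18.9 CPM at 12 h to 32.8 to 40.6 CPM at 24 h, as did the B cell marker sum, from 112 to 158 to 211 to 282 CPM, nearly all of it Ighm; their part in the result was not tested.

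Of all genes tested, 2.24% were more positive and 2.23% more negative, beside which the small counts below are to be read. By list, the difference was called most often, as a share, among genes linked to the non-pathogenic Th17 type, 4 of 7 more positive and 0 more negative, of which Il10 is also in Th17 core. In Th17 core 8 of 16 were more positive and 0 more negative, and Ccr6, which also rose without cytokines (1.52 ± 0.54), was the riser that was not called (2.19 ± 0.76, adjusted p = 0.102). In the aryl hydrocarbon receptor list 3 of 6 were more positive; Cyp1a1, which rose by 2.74 ± 0.42 without cytokines too, was not called (0.78 ± 0.59, adjusted p = 0.643). Of 14 regulatory T cell genes 2 were more positive, Entpd1 and Ikzf2, and 4 more negative, and of 24 cytokine receptors 3 were more positive and 0 more negative. Of 11 follicular helper genes 4 and of 12 TNF family ligands 3 were more negative, and of 22 interferon response genes 1 was more positive and 4 more negative. In that list Bst2, which tethers virus particles, rose with the cytokines from 58.9, 59.7 and 57 to 83.4, 93.1 and 101 CPM and fell without them from 59.0, 56.3 and 56.1 to 36.4, 42.2 and 46.5 CPM (difference 1.11 ± 0.22, adjusted p = 0.0008). Zbp1 was among the 4 interferon response genes that were more negative (difference -1.56). Of the 22 genes in that list 9 rose without cytokines and 4 with them, against 20.8% of all genes in each step. Ribosome biogenesis, with 28 of 32 lower without cytokines, and proteasome, with 27 of 31, had 0 called for the difference.

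**Figure D3:**
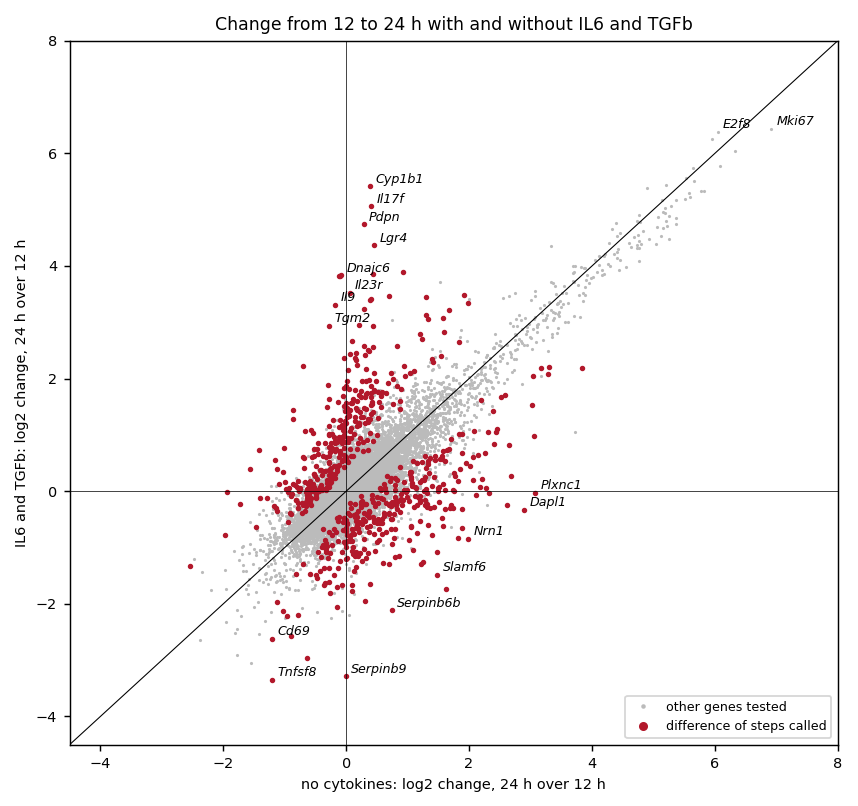
Log2 change from 12 to 24 h without cytokines (horizontal) against that with IL6 and TGFb (vertical), 1 point per gene tested, with the line of equal change; red points are the 656 genes called for the difference. Mki67 and E2f8 lie by the line at the upper right, Cyp1b1, Il17f and Pdpn rise with no change on the horizontal axis, and Plxnc1 and Dapl1 lie at the right with no change on the vertical one.

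Some genes went from nearly absent to clearly present. With IL6 and TGFb, 68 genes had a mean under 1 CPM at 12 h and of at least 5 CPM at 24 h, and 3 the reverse: Serpinb9, Serpinb6b and Adad1. Of the 68, 42 also had at least 5 CPM at 24 h without cytokines, and 11 are in the cell cycle lists. The difference was called positive for 17 of the 68, against 2.24% of all genes. The 68 were chosen by a rise with the cytokines that also enters the difference, so this count is not independent support. The 17 are all named here although the rule on named genes did not choose them all. They were the cytokine, antagonist and receptor genes Il17a, Il9, Il23r, Tnfrsf8 and Il1rn, the surface genes Entpd1, Pdpn and Lgr4, the enzyme genes Cyp11a1 and Gatm, and Pltp, Peli2, Ahrr, Dnajc6, Nptxr, Cdr2l and Reep1. Tnfrsf8, which encodes CD30, the receptor of the Tnfsf8 product, rose by 3.86 ± 0.39 as its ligand gene fell. Il1rn, the antagonist of the interleukin 1 receptor, rose by 3.82 ± 0.23 as the receptor gene Il1r1 rose. Cyp11a1, the first enzyme of steroid synthesis, rose by 3.41 ± 0.31, Gatm, of creatine synthesis, by 3.90 ± 0.22, and Pltp, a phospholipid transfer protein, by 3.40 ± 0.19.

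The 3 cocktails gave the same step in separate cultures that also held IL6 and TGFb. They called 7243 of 14859 genes with IL1b (48.7%), 7133 with IL21 (48%) and 7184 with both (48.3%). Of 6167 calls of the IL6 and TGFb step among genes tested in both sets of courses, 4738 (76.8%) were called in the same direction in all 3 cocktails, and 0 in the opposite direction in all 3; these are 79.7% of the 5948 genes called alike in the 3 cocktails. Of the 268 genes that differed from the no-cytokine step and were called only with IL6 and TGFb, 238 were called in the same direction in all 3 cocktails. Courses 4 to 6 had no cultures without cytokines, and the cocktails were not grown beside IL6 and TGFb alone, so cytokine and course set cannot be told apart and no test between them was run.

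Side by side, Il17f changed by 5.35, 5.42 and 5.29 with IL1b, with IL21 and with both, and Il17a by 3.41, 3.23 and 3.68. Il22 changed by 2.47 and 2.33 in the cocktails with IL1b and by 0.84 in that with IL21 alone, and by 2.36 with IL6 and TGFb. Il23r changed by 2.19, 2.56 and 1.89, and Cyp1b1 by 5.24, 4.98 and 4.60. Il7r, the receptor for a survival cytokine, rose with IL6 and TGFb (1.25 ± 0.33) and stood at -0.03, 0.23 and -0.14 in the cocktails. Among lists, Th17 core had 11 higher and 2 lower in each cocktail, DNA replication 40 higher of 40, and mitosis 43 higher of 45. The shares of all genes higher were 26.7% with IL1b, 26.1% with IL21 and 26.1% with both. The shares lower were 22%, 21.9% and 22.2% in the same order.

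**Figure D4:**
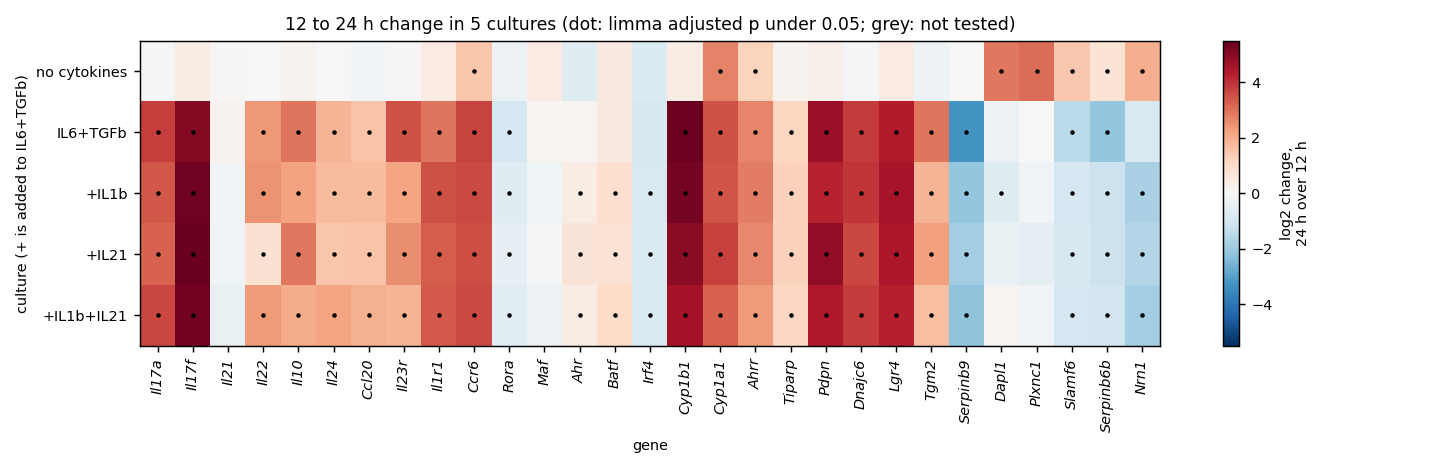
Log2 change from 12 to 24 h (colour, red for higher at 24 h) of genes of the Th17 core list, 4 aryl hydrocarbon receptor genes and the named genes of the difference, in 5 cultures, with a dot where limma called the gene. The rows with IL6 and TGFb share their red and blue columns, with Il17f between 5.06 and 5.42, and the row without cytokines is pale except for Ccr6, Cyp1a1, Ahrr and the genes at the right end.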

How the data were processed

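Per the labels' protocols, RNA was extracted, treated with DNase and made into Illumina libraries; RNA selection is not stated. Per the submitters' processing notes the tools were TopHat and HTSeq and 2 builds, mm9 and GRCh37, are listed, with no versions or roles given. The authors deposited 1 table of CPM values for 46517 genes, named for read counts: the columns share 1 total, and each value is a whole multiple of its column's smallest (100% of values, tolerance 0.001). These whole reads set the depth and were used for edgeR and DESeq2 alternatives; squared differences between libraries of a group were 4.57 to 10.6 times those of counting noise. All 37 mitochondrial genes were at 0, and 0 columns were left out.

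The limma test, with a mean-variance trend, used log2 values (TMM-scaled CPM with 0.5 added) of every gene that reached 1 CPM in 3 or more libraries: 14695 in courses 1 to 3 (57 libraries, 38 residual degrees of freedom) and 14859 in courses 4 to 6 (84 libraries, 56). The step, the step without cytokines, their difference and the 3 cocktail steps were contrasts of these fits. Named genes were the 12 highest and 12 lowest called genes (6 and 6 for the difference) that averaged 5 CPM or more and did not overlap between groups (for the difference, no overlap between the changes by course), all of Th17 core, and up to 4 such genes from each other list, clone and predicted symbols passed over. Members and the 48 lists were chosen with earlier results of these data known. On simulated reads of 13337 genes for the IL6 and TGFb step, limma recovered 78.7% of genes changed 2-fold and 97.9% of those changed 4-fold. The same run gave 10 false calls. These shares describe the simulated reads alone, and the share of real changes of these sizes that was recovered was not tested. Some genes that the rule chose are not reported here. Only symbols are given, and genes that overlap or share near-identical copies may share reads. Promoters came from RefSeq (GRCm38.p6), not the authors' build. Alternatives were no TMM scaling, pseudocounts of 0.1 and 2, no filter, only the libraries compared, a replicate block, edgeR, DESeq2 and leaving out each library. The software was limma 3.58.1, edgeR 4.0.16 and DESeq2 1.42.0 under R 4.3.3.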

Additional observations from a re-analysis of the deposited data

Results flagged for a closer look

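The results set out here are those for which the change from 12 to 24 h with IL6 and TGFb differed from the change without cytokines by the test of the difference itself (limma, adjusted p under 0.05). In all 656 genes passed it. No group of 4 or more libraries entered the comparisons, so no single library was tested for standing apart. Values are differences in log2 change, IL6 and TGFb minus no cytokines.

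Genes of the Th17 core list stood at 4.65 for Il17f, 3.94 for Il17a, 3.47 for Il23r, 2.75 for Il10, 2.50 for Il1r1, 2.40 for Il22, 1.87 for Il24 and 1.71 for Ccl20. Genes tied to the aryl hydrocarbon receptor stood at 5.02 for Cyp1b1, 1.47 for Ahrr and 0.98 for Tiparp. Among genes of other fates the values were 3.49 for Il9, 2.77 for Entpd1, 2.14 for Cd5l, 1.74 for Ikzf2, 1.55 for Il12rb2, 1.42 for Nfil3, -1.24 for Tox, -1.31 for Gata3 and -1.45 for Btla.

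Further positive values were 4.46 for Pdpn, 3.92 for Dnajc6, 3.92 for Il1rn, 3.91 for Lgr4, 3.43 for Tnfrsf8, 3.21 for Tgm2, 3.01 for Cyp11a1, 3.01 for Pltp, 2.98 for Gatm, 2.95 for Peli2, 1.37 for Cdr2l, 1.24 for Nptxr, 1.11 for Bst2 and 0.82 for Reep1. Bst2 is the one of these that fell without cytokines while it rose with them.

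Negative values were -3.28 for Serpinb9, -3.23 for Dapl1, -3.10 for Plxnc1, -2.96 for Slamf6, -2.86 for Serpinb6b, -2.83 for Nrn1, -2.32 for Cd274, -2.15 for Tnfsf8, -1.67 for Adamts6, -1.56 for Zbp1, -1.42 for Cd69, -1.18 for Klf3, -1.13 for Traf1 and -0.99 for Cd3g. Slamf6 and Serpinb6b were called in opposite directions in the 2 steps.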

How the results depend on the processing

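The count of genes called in the step with IL6 and TGFb, 6201, stayed between 5283 and 7957 over the alternatives, and that without cytokines, 6342, between 5302 and 8048. The 3 cocktail counts, 7243, 7133 and 7184, stayed between 6399 and 8674. With edgeR the first 2 counts were 6276 and 6380, and with DESeq2 6373 and 6491. The 656 genes called for the difference became 1938 with only the libraries compared and 3019 with the replicate block in that fit; they were 480 with edgeR, 585 with DESeq2, and 464 to 597 when 1 library was left out. With the replicate block in the fit over all groups the counts were 6331, 6479 and 731. Replicate numbers did not pair the 12 and 24 h libraries of a culture in every case: deviations of same-numbered libraries correlated at -0.118 to 0.125 with IL6 and TGFb, where 1 of 3 24 h libraries correlated best with its own number, and at -0.00179 to 0.481 without cytokines. Across cultures, same-numbered libraries correlated at 0.306 to 0.500 at 12 h, in all 3 numbers, and at 0.042 to 0.347 at 24 h. Libraries with 1 number therefore deviated together across cultures at 12 h, which bears on the difference between steps.

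Of 181 genes examined in the step, 150 kept their direction and their side of the threshold in every alternative, and of 12 in the difference 10 did, the others being Cyp1b1 (4.17 with edgeR, 4.20 with DESeq2) and Pdpn (4.59 with edgeR). Tbx21, not called at -0.06, was at 0.017 without TMM scaling and between -0.22 and 0.10 when 1 library was left out, positive without the 24 h library of course 2; the cause was not tested. Depth limits genes near 1 read, worth about 0.04 CPM, such as Il24 at 12 h.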
